A study of Danio rerio with 30 samples.

Results

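The 6 mRNAs described here, mos, zar1, gdf9, bmp15, btg4 and figla, encode factors that the oocyte makes for its own growth, its meiotic maturation and the handling of its stored RNA. They were chosen by name, 1 gene identifier each, from the 35117 genes of the series. All 6 passed the filter of every main fit below, a mean of at least 1 TPM. The series followed zebrafish embryos kept at 28 °C over the first 8 h after fertilization (hpf) in 30 RNA-seq libraries. In treated embryos, alpha-amanitin (200 ng/µl), a toxin that blocks RNA polymerase II, was injected at the single-cell stage, and poly(A) RNA was sequenced in 12 libraries, every 0.5 h between 2 and 7.5 hpf. Wild-type embryos without the toxin were sequenced each hour from 0 to 8 hpf by 2 protocols. Capture of poly(A) RNA gave 9 libraries, and depletion of ribosomal RNA (Ribo-Zero), which does not need a poly(A) tail, gave another 9. No strain or injected control is named in the labels, so the injection and the toxin cannot be told apart.

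An oocyte accumulates mRNA and stops transcribing before ovulation, so the egg and the early embryo live on stored transcripts. Many of these are held with short poly(A) tails, and their tails are lengthened or removed by enzymes of the cytoplasm, which sets when they are translated and when they decay. During the maternal-to-zygotic transition the stored mRNAs are cleared, in part by maternal factors that act without new transcription and in part by products of the zygotic genome, such as the miR-430 microRNAs of zebrafish. Mos is the kinase that drives the MAPK cascade of meiosis and holds the egg in arrest until fertilization. Zar1 is an RNA-binding protein of the oocyte. Gdf9 and Bmp15 are secreted ligands of the TGF-beta family through which the oocyte signals to its follicle cells. Btg4 belongs to the BTG/Tob family and, in mouse, brings the CCR4-NOT deadenylase to maternal mRNAs. Figla is a basic helix-loop-helix transcription factor which in mouse switches on the genes of the egg envelope.

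Each time point of each profile had 1 library, so no value below has a replicate error, and p-values rest on the scatter of consecutive hours around a mean or a line. Levels are in TPM, a share of the library corrected for transcript length. The read depth of the libraries is unknown, so no counting error can be attached. Between 11919 and 16194 genes reached 1 TPM in a library, and mitochondrial transcripts took 1.15% to 14.1% of the total. The summed level of 6 zygotic genes stayed between 0 and 1.22 TPM in alpha-amanitin embryos, against 3167 TPM at 8 hpf in wild-type poly(A) RNA. Of 7 markers of the ovarian follicle cells that surround an oocyte, fshr was at 0 everywhere. Gsdf reached 1 TPM in both poly(A) profiles and inha in the wild-type one. The 7 markers summed to 0.46 to 1.45 TPM in alpha-amanitin libraries, 0.19 to 1.97 in wild-type poly(A) libraries and 0.18 to 0.81 in Ribo-Zero libraries. The summed markers of sperm and testis measured 5.41 to 9.76 TPM in alpha-amanitin libraries, 1.55 to 8.61 in wild-type poly(A) libraries and 1.6 to 4.4 in Ribo-Zero libraries, with dmrt1 and odf3b reaching 1 TPM. In whole embryos, fewer cells with an mRNA and less of it per cell cannot be told apart.

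In the egg, a term used here for the libraries of 0 and 1 hpf, btg4 was by far the most abundant of the 6. At 0 and 1 hpf it stood at 653 and 287 TPM in poly(A) RNA and at 374 and 320.0 TPM in Ribo-Zero RNA, where its mean held rank 272 among all genes. In Ribo-Zero RNA mos followed with a mean of 200.0 TPM, then bmp15 with 98.4, zar1 with 33.7, gdf9 with 29.8 and figla with 7.8 TPM. The values of zar1 (33.5 and 33.9 TPM) and gdf9 (35.1 and 24.5 TPM) overlapped, so their order is not set, whereas the other neighbours did not overlap over these 2 hours. In poly(A) RNA the order was btg4, mos, bmp15 and gdf9, and then figla (8.12 and 12.5 TPM) and zar1 (6.42 and 11.5 TPM), which overlapped. Zar1 was thus next to gdf9 in total RNA but last of the 6 by mean in poly(A) RNA.

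**Figure D1:**
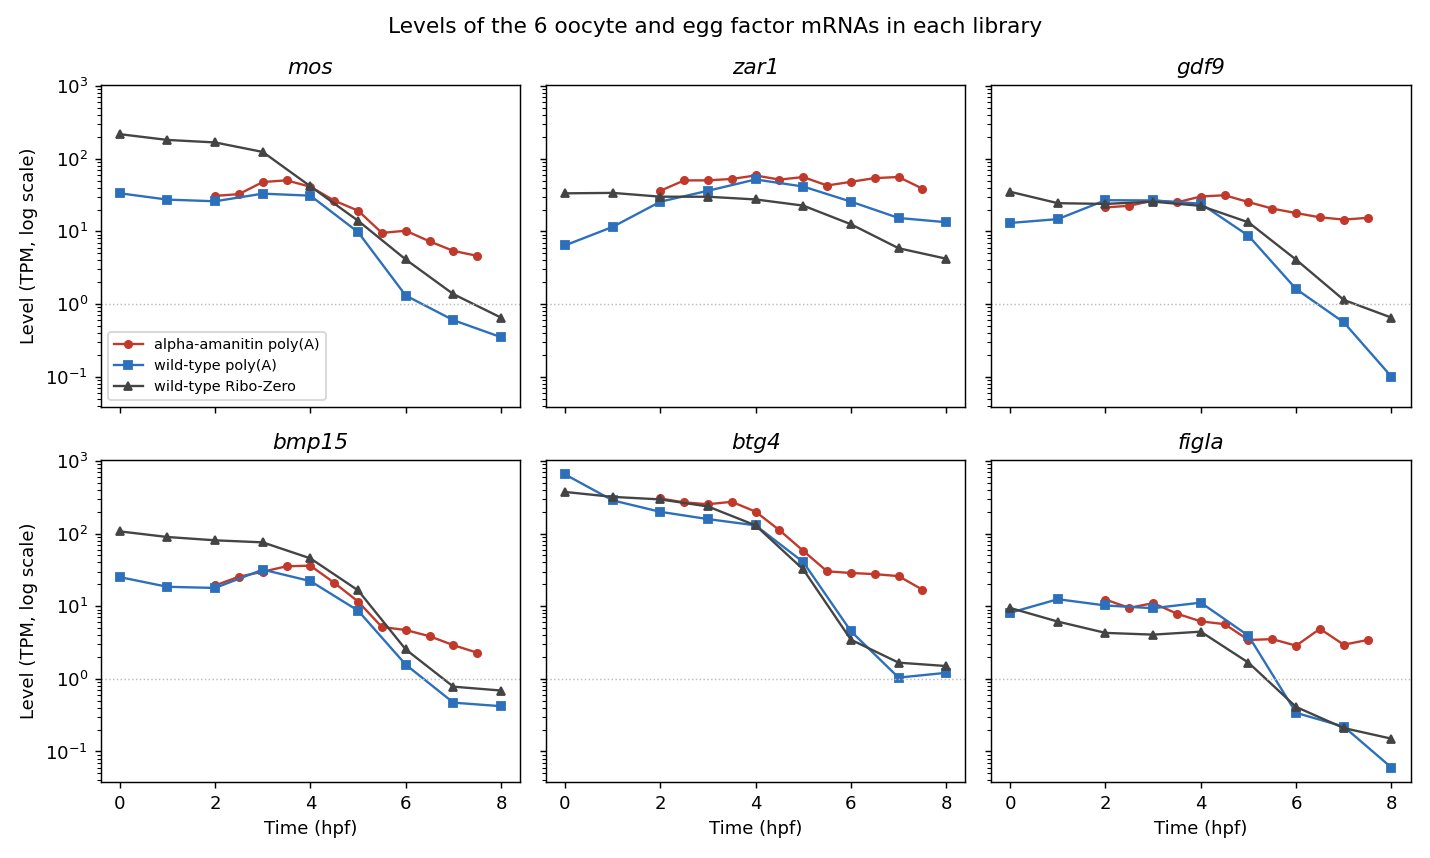
Level of each mRNA in every library, in TPM on a log axis, against hours after fertilization. Red circles are alpha-amanitin poly(A), blue squares wild-type poly(A) and grey triangles wild-type Ribo-Zero libraries, 1 library a point, and the dotted line marks 1 TPM. In wild type 5 of the 6 end near or under 1 TPM, while zar1 still stands at 13.4 TPM in poly(A) and 4.21 TPM in Ribo-Zero RNA at 8 hpf.

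The meiotic kinase mRNA mos (ENSDARG00000069744) showed the widest gap between the protocols. In alpha-amanitin embryos it measured 30.9, 32.6, 47.9, 50.5, 41.2, 26.6, 19.3, 9.54, 10.2, 7.3, 5.39 and 4.61 TPM between 2 and 7.5 hpf. In wild-type poly(A) RNA it measured 33.5, 27.4, 26.0, 33.1, 31.1, 9.78, 1.31, 0.6 and 0.35 TPM at 0 to 8 hpf. In wild-type Ribo-Zero RNA the values at the same hours were 218, 182, 168, 124, 41.8, 14.0, 4.11, 1.37 and 0.65 TPM. Total mos RNA was therefore already lower at each hour than at the one before it, while the wild-type poly(A) level stayed between 26.0 and 33.5 TPM up to 4 hpf. At 4 hpf total mos RNA was at 24.9% of its 2 hpf level. The poly(A) level stood at 133% of its own 2 hpf level in alpha-amanitin and at 119% in wild-type embryos.

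The mRNA of the RNA-binding factor zar1 (ENSDARG00000019706) was the slowest to go. Alpha-amanitin embryos held 36.2, 50.4, 50.5, 52.8, 58.9, 51.7, 56.0, 42.9, 48.2, 54.2, 56.1 and 38.8 TPM. Wild-type poly(A) RNA held 6.42, 11.5, 25.6, 36.3, 51.9, 41.5, 25.7, 15.3 and 13.4 TPM. Ribo-Zero RNA held 33.5, 33.9, 30.1, 30.01, 27.6, 22.7, 12.6, 5.87 and 4.21 TPM. The poly(A) level in wild type was thus higher in each library up to 4 hpf, while the total level was never above its value at 1 hpf, and no alpha-amanitin library fell below that of 2 hpf.

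Of the ligands, gdf9 (ENSDARG00000003229) kept a level above 14 TPM in alpha-amanitin embryos. It measured 21.4, 22.5, 26.7, 25.2, 30.2, 31.5, 25.4, 20.6, 17.9, 15.6, 14.6 and 15.4 TPM in alpha-amanitin embryos. The wild-type poly(A) series read 13.1, 14.8, 26.9, 26.7, 24.1, 8.72, 1.61, 0.56 and 0.1 TPM. The Ribo-Zero series read 35.1, 24.5, 23.9, 25.7, 22.5, 13.3, 4.08, 1.14 and 0.65 TPM. From 0 to 2 hpf its wild-type levels moved in opposite directions, by 1.03 in poly(A) and -0.55 in Ribo-Zero RNA on the log2 scale. At 7 hpf, 67.9% of the 2 hpf level was left in alpha-amanitin embryos, against 2.08% in wild-type poly(A) RNA.

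The other ligand, bmp15 (ENSDARG00000037491), followed mos rather than gdf9. Its alpha-amanitin values were 19.3, 25.5, 29.8, 35.4, 36.1, 21.0, 11.6, 5.17, 4.7, 3.86, 2.91 and 2.29 TPM. Its wild-type poly(A) values were 25.1, 18.5, 17.8, 31.9, 22.2, 8.69, 1.57, 0.47 and 0.42 TPM. Its Ribo-Zero values were 107, 89.7, 80.7, 75.7, 45.5, 16.5, 2.54, 0.78 and 0.69 TPM. Both poly(A) series were highest in the middle, at 4 hpf in alpha-amanitin and at 3 hpf in wild-type embryos, while the Ribo-Zero series was highest at 0 hpf.

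The deadenylase adaptor mRNA btg4 (ENSDARG00000035171) was lost in every profile. It fell over the alpha-amanitin libraries, which read 304, 269, 253, 274, 200.2, 111, 57.9, 30.2, 28.7, 27.6, 25.9 and 16.9 TPM. Wild-type poly(A) libraries read 653, 287, 199, 158, 130, 40.5, 4.52, 1.04 and 1.21 TPM. Ribo-Zero libraries read 374, 320.0, 295, 236, 130, 32.1, 3.46, 1.67 and 1.5 TPM. Of the 2 hpf poly(A) level, 65.8% was left at 4 hpf in alpha-amanitin against 65.1% in wild-type embryos, and 19.0% in alpha-amanitin against 20.3% in wild-type embryos at 5 hpf. The profiles parted at 6 hpf, with 9.43% left in alpha-amanitin against 2.27% in wild-type embryos.

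The mRNA of the transcription factor figla (ENSDARG00000087166) was the scarcest in Ribo-Zero RNA of the egg. In alpha-amanitin embryos it measured 12.3, 9.49, 11.03, 7.89, 6.18, 5.66, 3.43, 3.52, 2.86, 4.88, 2.95 and 3.43 TPM. In wild-type poly(A) RNA it measured 8.12, 12.5, 10.2, 9.38, 11.2, 3.92, 0.34, 0.22 and 0.06 TPM. In Ribo-Zero RNA it measured 9.46, 6.14, 4.29, 4.06, 4.46, 1.67, 0.41, 0.21 and 0.15 TPM. Its alpha-amanitin series flattened after 5 hpf at 2.86 to 4.88 TPM, whereas both wild-type series were under 1 TPM from 6 hpf on.

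The first comparison set the share of each mRNA in poly(A) libraries against that in Ribo-Zero libraries at 0 and 1 hpf (2 against 2). This difference of library shares is called capture below, and it is not a recovered fraction. Tail state and other effects of the protocol on a gene cannot be told apart in it. The 2 hours stand in for repeats, although capture moved between them. The median difference of maternal genes was -1.67 at 0 hpf and -1.08 at 1 hpf, and that of btg4 was 0.80 and -0.16. In poly(A) RNA 4 transcripts were lower: mos, bmp15, zar1 and gdf9. Mos had the largest gap, 33.5 and 27.4 TPM in poly(A) against 218 and 182 TPM in Ribo-Zero RNA, a difference of -2.71 ± 0.29 (log2(TPM + 0.1), SE, limma adjusted p = 0.000751). Bmp15 differed by -2.18 ± 0.31 (limma adjusted p = 0.0013), zar1 by -1.96 ± 0.37 (0.00341) and gdf9 by -1.07 ± 0.33 (0.0229). Neither btg4, at 0.32 ± 0.39 (limma adjusted p = 0.482), nor figla, at 0.40 ± 0.39 (0.382), passed the test, and each was higher in poly(A) RNA in 1 of the 2 hours.

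A lower level in poly(A) RNA was common among all genes of the egg. Of 13611 genes tested, 57.3% were called lower in poly(A) RNA and 13.1% higher, so 4 of 6 lower is close to the background, and the median difference was -1.39. After scaling of each library to the median of maternal genes (the 10874 genes with a mean of at least 5 TPM in Ribo-Zero RNA at 0 and 1 hpf), which takes that shift out, 2133 genes were called lower and 3787 higher, and mos was still lower (-1.38, limma adjusted p = 0.0162). On that scale bmp15 (-0.84, limma adjusted p = 0.0839) and zar1 (-0.62, 0.133) no longer passed, gdf9 changed sign (0.26, 0.375) and figla was higher (1.72, 0.0102). Btg4, at 1.66 (limma adjusted p = 0.0576), stayed short of the threshold.

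**Figure D2:**
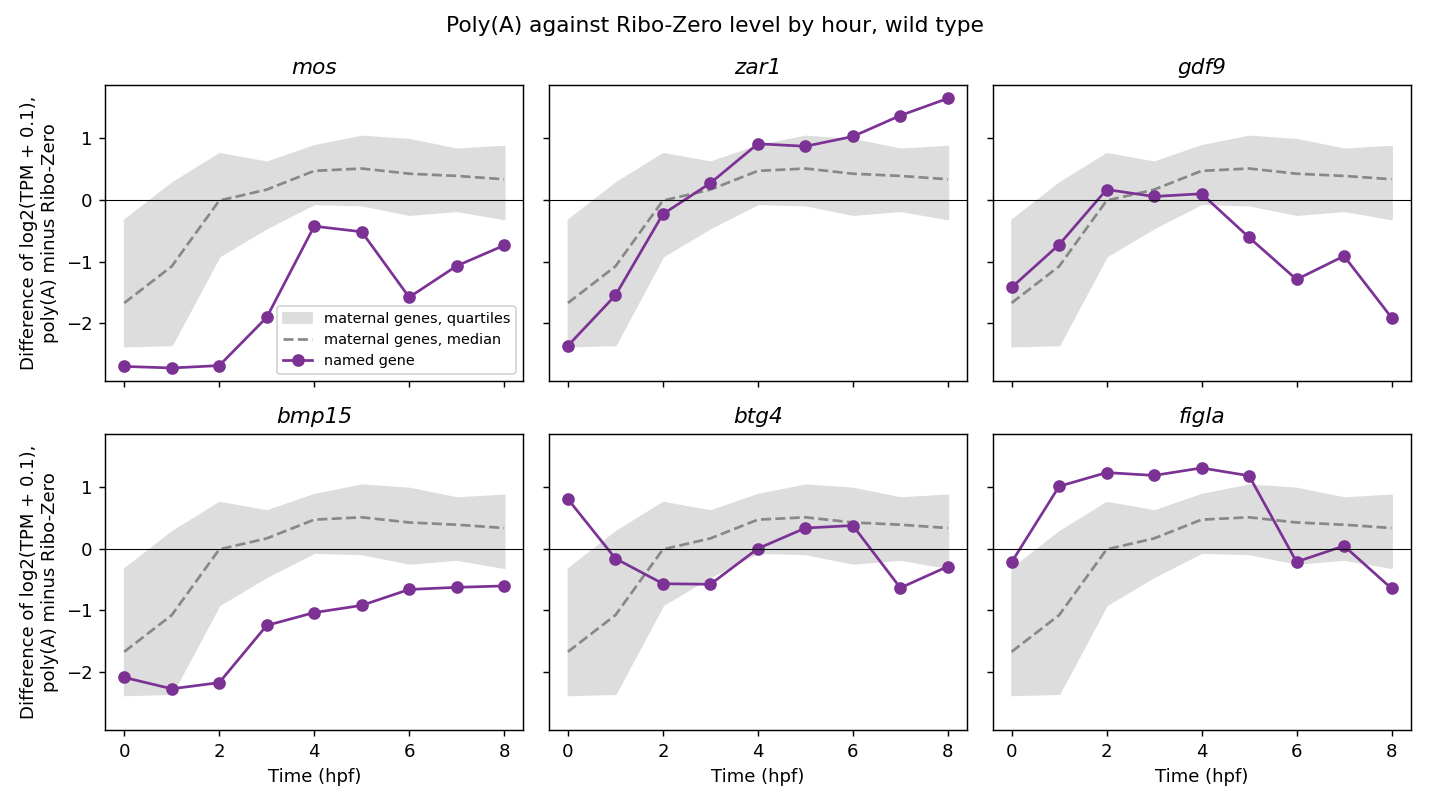
Poly(A) minus Ribo-Zero difference of log2(TPM + 0.1) in wild-type embryos against hours after fertilization, 1 panel a gene. The purple line is the named gene, and the dashed line and grey band are the median and quartiles of 10874 maternal genes. Mos stays under the band at every hour, while zar1 passes from -2.36 at 0 hpf to 1.65 at 8 hpf.

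Before the main wave of zygotic transcription the capture of zar1 rose. Its poly(A) minus Ribo-Zero difference was -2.36, -1.55, -0.23 and 0.27 at 0, 1, 2 and 3 hpf, beside a median of maternal genes of -1.67, -1.08, -0.01 and 0.17. The change per hour was 0.92 ± 0.17 (SE, limma adjusted p = 0.0179), and zar1 was the 1 of the 6 that passed, where 33.9% of 13872 genes rose and 2.11% fell. Because the median gene gained 0.57 per hour, the value after scaling to maternal genes was 0.33 (limma adjusted p = 0.128). The call was also lost without the 0, 2 or 3 hpf pair (limma adjusted p = 0.0540 to 0.0924), with slopes of 0.88 to 1.07. Without the 2 or the 3 hpf pair no gene of 13823 and 13763 was called either way, so those losses are not particular to zar1. Without the 0 hpf pair 1694 of 13908 genes rose and 386 fell.

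The other 5 did not pass that test. Gdf9 gave 0.53 ± 0.19 per hour (limma adjusted p = 0.0511) and reached 0.17 at 2 hpf, past the 0 line. Figla gave 0.44 ± 0.21 (limma adjusted p = 0.112), bmp15 0.26 ± 0.20 (0.304) and mos 0.24 ± 0.16 (0.244). With scaling to maternal genes these 4 turned negative, at -0.06 for gdf9, -0.15 for figla, -0.33 for bmp15 and -0.36 for mos, and none passed (limma adjusted p = 0.239 to 0.758). For mos the difference was -2.70, -2.73 and -2.69 at 0, 1 and 2 hpf and -1.90 at 3 hpf, and at 2 hpf only 4.4% of maternal genes were lower. Mos passed when the 4 hpf pair, at -0.43, was added (0.54 per hour, limma adjusted p = 0.0183), and gdf9 too (0.38, 0.0334). With that pair 7145 of 14370 genes rose and 530 fell. From 3 to 4 hpf mos went from 33.1 to 31.1 TPM in poly(A) RNA and from 124 to 41.8 TPM in Ribo-Zero RNA.

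For btg4 the slope had the opposite sign but did not pass. Its difference was 0.80, -0.16, -0.57 and -0.58 at 0 to 3 hpf, a slope of -0.45 ± 0.17 per hour (SE, limma adjusted p = 0.0610), and 4.22% of the genes tested had a lower one. Without the 0 hpf pair the slope was -0.21 (limma adjusted p = 0.345), over 0 to 4 hpf it was -0.20 (0.209), and after scaling to maternal genes it was -1.05 (0.0243). In poly(A) RNA btg4 stood at 653 TPM at 0 hpf and 199 TPM at 2 hpf, against 374 and 295 TPM in Ribo-Zero RNA.

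The loss of total RNA was then followed in wild-type Ribo-Zero libraries from 2 to 8 hpf (7 libraries). All 6 mRNAs fell, in a profile where 51.4% of 15740 genes fell and 23.3% rose. Btg4 had a slope of -1.04 ± 0.10 per hour (ln(TPM + 0.1), SE, limma adjusted p = 0.000489), which is an apparent half-life of 0.668 h (95% interval 0.545 to 0.864). Mos followed at -0.98 ± 0.05 (0.708 h, limma adjusted p = 0.000432) and bmp15 at -0.92 ± 0.09 (0.757 h, 0.000495). Only 0.0254% of the genes tested had a steeper slope than btg4, 0.0826% than mos and 0.216% than bmp15. The 95% intervals of btg4 (-1.27 to -0.80), mos (-1.09 to -0.86) and bmp15 (-1.13 to -0.70) overlapped, so the order of these slopes is not set. The speed of loss was not constant. From 2 to 8 hpf the hourly steps of btg4 were -0.32, -0.87, -2.01, -3.18, -1.01 and -0.15 on the log2 scale. Those of gdf9 ranged from 0.10 at 2 to 3 hpf to -1.75 at 6 to 7 hpf. A single half-life is thus an average over the window, and its interval includes this curvature.

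By estimate gdf9 and figla were slower, and zar1 slowest, but no pair of genes was tested against each other. Gdf9 fell by 0.65 ± 0.09 per hour (half-life 1.07 h, limma adjusted p = 0.00079) and figla by 0.57 ± 0.09 (1.21 h, 0.00111). Figla went from 4.29 TPM at 2 hpf to 0.15 TPM at 8 hpf, near the pseudocount of 0.1, which makes a slope shallower. Zar1 fell by 0.35 ± 0.05 per hour (half-life 1.97 h, limma adjusted p = 0.00108). TPM is a share, so entry of zygotic RNA can lower the share of stored mRNAs. The median maternal gene had a slope of -0.21, in which such dilution and clearance shared by maternal genes cannot be told apart. Scaling to maternal genes takes out both. With scaling to maternal genes all 6 slopes were still called, from -0.84 for btg4 to -0.15 for zar1 (limma adjusted p = 0.0394). Over all genes 3651 of 15935 fell and 7090 rose with that scaling. In wild-type poly(A) libraries over the same hours zar1 had -0.16 (limma adjusted p = 0.0786) and the others -0.76 to -1.01.

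The time of loss differed among them. Total mos RNA reached 50% of its 2 hpf level at 3.36 hpf by interpolation, btg4 at 3.78, bmp15 at 4.12, figla at 4.75, gdf9 at 5.09 and zar1 at 5.69 hpf. All but zar1 passed 10% of it, mos at 4.84 hpf, btg4 at 5.04, bmp15 at 5.39, figla at 5.97 and gdf9 at 6.43 hpf. At 8 hpf, zar1 still had 14.0% of its 2 hpf level, against 0.387% of mos.

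Total RNA of most was lower already by 3 hpf. Between 0 and 3 hpf the Ribo-Zero level of figla differed by -1.20 on the log2 scale, mos by -0.81, btg4 by -0.66, bmp15 by -0.50, gdf9 by -0.45 and zar1 by -0.16. The median maternal gene differed by -0.17, and 1.55% of maternal genes were lower than mos. Fitted over these 4 libraries, a window chosen after the data had been seen, the mos slope was -0.18 ± 0.03 per hour (SE, limma adjusted p = 0.0834) and none of the 6 passed, in a fit that called 6 genes down and 8 up of 14151.

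Clearance without zygotic transcription was measured by the slope over the 12 alpha-amanitin libraries. Of the 6 mRNAs 5 fell, where 37.5% of 13977 genes fell and 23.7% rose. Btg4 again had the steepest estimate, at -0.60 ± 0.05 per hour (ln(TPM + 0.1), SE, half-life 1.16 h, 95% interval 0.987 to 1.39, limma adjusted p = 3.90e-07). Bmp15 had -0.51 ± 0.07 (half-life 1.36 h, limma adjusted p = 3.28e-05), mos -0.44 ± 0.06 (1.59 h, 1.73e-05) and figla -0.26 ± 0.04 (2.69 h, 0.0001). Of the genes tested, 1.69% had a steeper slope than btg4, 3.66% than bmp15, 6.32% than mos and 18.3% than figla. The 95% intervals of btg4 (-0.70 to -0.50), bmp15 (-0.66 to -0.36) and mos (-0.56 to -0.32) overlapped, so their order is not set.

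For the remaining pair the slopes were near 0. Gdf9 had -0.10 ± 0.03 per hour, a half-life of 6.92 h with a 95% interval of 4.06 to 23.5 h (limma adjusted p = 0.0169), and this call was lost without the 7 hpf or the 7.5 hpf library (0.0553 and 0.0521). Zar1 had 0.01 ± 0.03 per hour (limma adjusted p = 0.854), with a 95% interval of -0.05 to 0.06, so no half-life was computed. The median over all genes tested was -0.03. These are poly(A) libraries, in which removal of the tail and loss of the RNA cannot be told apart.

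The alpha-amanitin slopes were not constant. Between 2 and 4.5 hpf the slope of mos was 0.0002, that of bmp15 0.09 and that of gdf9 0.16 per hour, none past the test (limma adjusted p = 0.999, 0.589 and 0.110). Btg4 at -0.33 (limma adjusted p = 0.0380) and figla at -0.31 (0.0342) already fell in this window. Over all genes, 499 of 14242 fell in it and 1338 rose. Between 4 and 6 hpf, a window added after the data had been seen, bmp15 had -1.09 ± 0.10 (half-life 0.638 h, limma adjusted p = 0.000167), btg4 -1.04 ± 0.10 (0.669 h, 0.000166) and mos -0.76 ± 0.10 (0.914 h, 0.000585). Gdf9 had -0.29 ± 0.07 per hour there (limma adjusted p = 0.0123), and zar1, at -0.12 ± 0.07 (0.208), did not pass. Figla had -0.39 ± 0.11 (limma adjusted p = 0.0227) in this window. Over all genes, 4557 of 13963 fell in it (32.6%) and 1124 rose, with a median slope of -0.12. Of these genes 33.6% had a steeper slope than gdf9 and 26.2% than figla. From 5 to 7.5 hpf bmp15 (-0.56 per hour, limma adjusted p = 0.00389), mos (-0.52, 0.00279), btg4 (-0.38, 0.00984) and gdf9 (-0.21, 0.0222) still fell, while figla had 0.0004 (0.998) and zar1 -0.05 (0.625). In that window 2868 of 13378 genes fell and 41 rose.

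**Figure D3:**
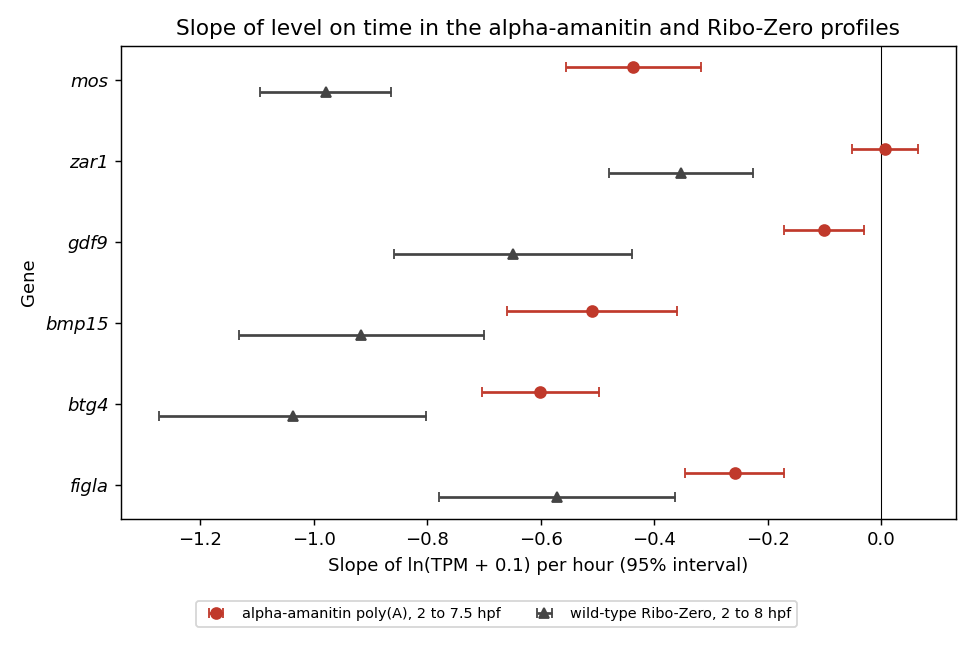
Slope of ln(TPM + 0.1) per hour for each mRNA with its 95% interval, in alpha-amanitin poly(A) libraries from 2 to 7.5 hpf (red circles, above) and wild-type Ribo-Zero libraries from 2 to 8 hpf (grey triangles, below). Points left of 0 mean a falling level, and the interval of zar1 in alpha-amanitin embryos, -0.05 to 0.06, is the one that holds 0. The 2 sets of slopes differ in treatment, RNA protocol and hours, so a gap between them cannot be assigned to any of these.

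The last comparisons set alpha-amanitin against wild-type poly(A) libraries, and share those libraries with each other and with the alpha-amanitin slopes. The first tested whether the slope of the poly(A) level differed between 2 and 7 hpf (6 hours each). In alpha-amanitin embryos the poly(A) level of 3 mRNAs fell more slowly. Of 15782 genes, 29.4% had a more positive slope there and 23.1% a more negative one. Gdf9 differed by 1.01 ± 0.21 per hour (log2(TPM + 0.1), SE, limma adjusted p = 0.00232), btg4 by 0.72 ± 0.25 (0.0274) and figla by 0.66 ± 0.25 (0.0424). Mos at 0.61 ± 0.26 (limma adjusted p = 0.0682), bmp15 at 0.46 ± 0.29 (0.191) and zar1 at 0.24 ± 0.15 (0.188) did not pass, with 95% intervals of 0.04 to 1.17, -0.16 to 1.07 and -0.08 to 0.56.

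Gdf9 was the 1 of these that passed under each alternative run. The median maternal gene differed by 0.22 per hour, and with scaling to maternal genes gdf9 had 0.79 (limma adjusted p = 0.00105), btg4 0.49 (0.0437), figla 0.47 (0.0720) and zar1 -0.004 (0.974), the last with its sign turned. Without the 7 hpf pair btg4 had 0.39 (limma adjusted p = 0.356) and figla 0.45 (0.332), and both also failed without 3 or 6 hpf. Mos passed without the 2 hpf pair (0.73, limma adjusted p = 0.0191) or the 4 hpf pair (0.58, 0.0481), and bmp15 without that of 2 hpf (0.58, 0.0481).

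The other test compared the levels from 4 to 7 hpf (4 hours each). In alpha-amanitin embryos 4 mRNAs were higher, against a background of 23.8% of 16028 genes higher and 21.8% lower. Gdf9 measured 30.2, 25.4, 17.9 and 14.6 TPM in alpha-amanitin against 24.1, 8.72, 1.61 and 0.56 TPM in wild-type embryos, a difference of 2.43 ± 0.61 (log2(TPM + 0.1), SE, limma adjusted p = 0.0165). Btg4 differed by 2.07 ± 0.62 (limma adjusted p = 0.0280), mos by 1.81 ± 0.49 (0.0211) and bmp15 by 1.26 ± 0.41 (0.0356), each higher in 4 of 4 hours. Zar1, at 0.85 ± 0.31 (limma adjusted p = 0.0502) and also higher in 4 of 4 hours, missed the threshold, and figla, at 1.24 ± 0.73 (0.173), was higher in 2 of 4. Under other settings zar1 ranged from 0.21 to 0.85 and passed in 2 of them (lowest limma adjusted p = 0.0482). It also passed in 1 of the runs without an hour (limma adjusted p = 0.0301).

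These differences were largest late, but btg4, zar1 and mos were above the median maternal gene already at both 2 and 3 hpf. At 2 and 3 hpf the ratio of alpha-amanitin to wild-type TPM was 1.53 and 1.60 for btg4 and 1.41 and 1.39 for zar1. For mos it was 1.19 and 1.45, for figla 1.21 and 1.18, for bmp15 1.08 and 0.935 and for gdf9 0.797 and 0.998. At these hours the median maternal gene differed by 0.03 and 0.26 on the log2 scale. Between 2 and 7 hpf mos, zar1 and btg4 were higher in alpha-amanitin embryos in 6 of 6 hours, bmp15 in 5, and gdf9 and figla in 4. At 4 hpf the ratio of alpha-amanitin to wild-type TPM was between 0.552 for figla and 1.63 for bmp15, and at 7 hpf it was 26.0 for gdf9, 24.9 for btg4, 13.4 for figla, 8.98 for mos, 6.19 for bmp15 and 3.66 for zar1. Wild-type levels at 7 hpf were 1.04 TPM or less in all but zar1, so these ratios rest on low values. Without the 5, 6 or 7 hpf pair no level call held (limma adjusted p = 0.0551 to 0.2), and with the hour as a factor the adjusted p ranged from 0.0616 for gdf9 to 0.0998 for bmp15. Over all genes that factor model called 631 higher and 2099 lower, against 3811 and 3495 of 16028 in the main fit. Most calls of a higher level were thus lost in general, and the all-gene counts without 1 hour are in the last paragraph. The median maternal gene was 0.64 higher, and with scaling gdf9 (1.83, limma adjusted p = 0.0213), btg4 (1.46, 0.0440) and mos (1.21, 0.0332) were still called while bmp15 was not (0.67, 0.121). With that scaling 1654 genes were called higher over all genes, and the count lower stayed within 1.5 times of 3495.

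**Figure D4:**
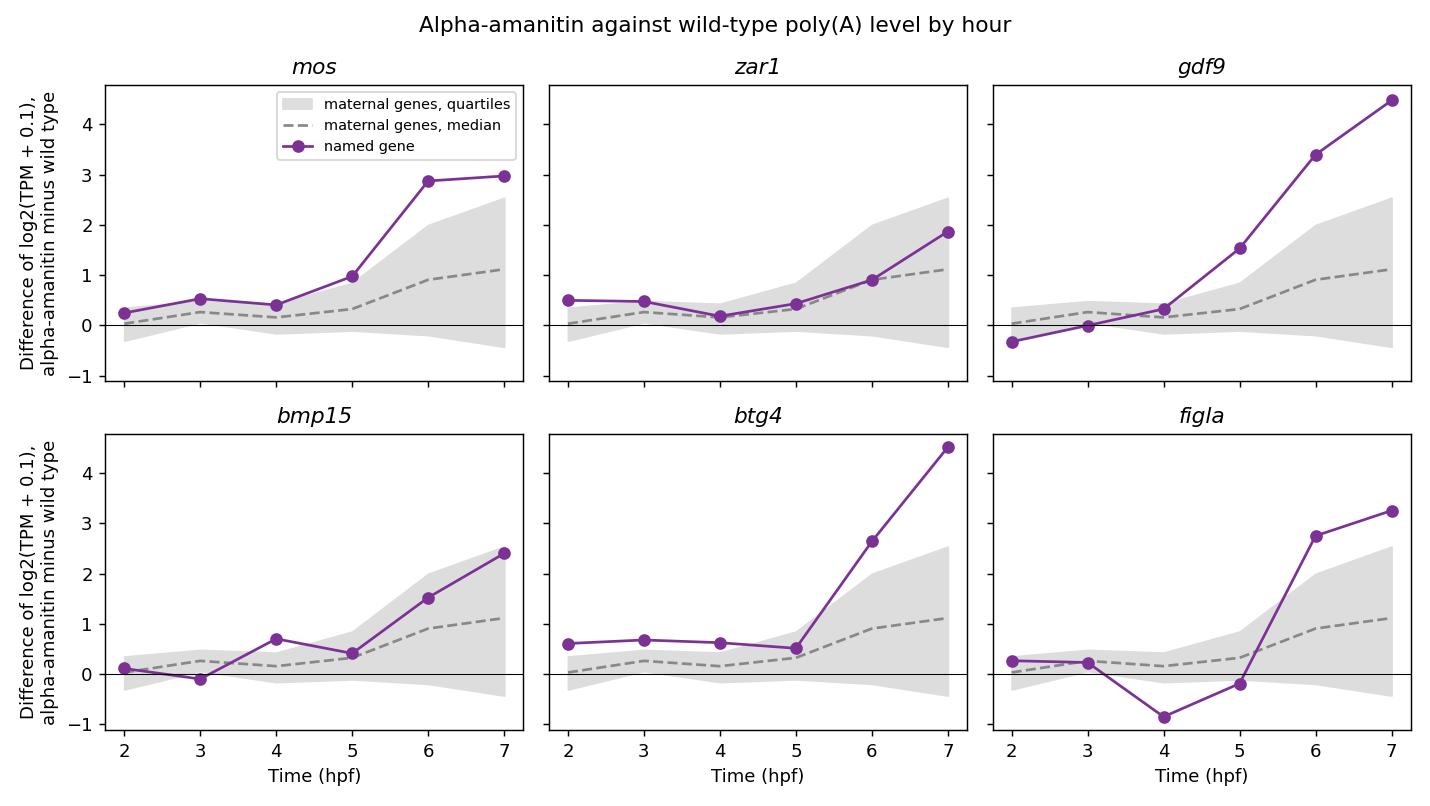
Alpha-amanitin minus wild-type difference of log2(TPM + 0.1) in poly(A) libraries at 2 to 7 hpf, 1 panel a gene. The purple line is the named gene, the dashed line and grey band the median and quartiles of 10874 maternal genes. At 7 hpf btg4 (4.51), gdf9 (4.47), figla (3.25) and mos (2.97) stand above the upper quartile of 2.54, and bmp15 (2.40) and zar1 (1.87) are inside the band.

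Within the 6, the courses over all 30 libraries grouped mos with bmp15. Each was the closest gene to the other (Pearson r = 0.986 on log2(TPM + 0.1)) among 15089 genes with a highest level of at least 5 TPM. For btg4 the closest was kpna7, an importin alpha of the oocyte (0.986), for gdf9 rbm33b (0.988), for zar1 nccrp1 (0.977) and for figla fhdc3 (0.974). Zar1 and bmp15 had the weakest likeness of the 6 (0.443). The points share 3 profiles and a common time course, so high values are general and carry no test.

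Among other oocyte factors, 15 were found by name and 14 tested. All 14 fell in Ribo-Zero RNA, where 51.4% of all genes did (median slope -0.67, against -0.13 over all genes), with kpna7 at -0.89 and lhx8a, a LIM homeobox factor, at -0.84 per hour, and 13 of 14 with scaling to maternal genes. In alpha-amanitin embryos 10 of the 14 fell and none rose, beside 37.5% and 23.7% of all genes (median -0.20, against -0.03), led by kpna7 (-0.69) and the maternal linker histone h1m (-0.52). Relative to wild type, 8 of 14 had a more positive slope and none a more negative one, beside 29.4% and 23.1% of all genes, with fbxo43, an inhibitor of the anaphase-promoting complex, at 1.01 per hour, and 6 of 14 with scaling. In the egg 7 of 14 were higher and 6 lower in poly(A) RNA, beside 13.1% and 57.3% of all genes, with taf4b (-2.95) and npm2a (-2.89) lowest. Between 0 and 3 hpf 4 of the 14 fell in poly(A) over Ribo-Zero level and 2 rose, beside 2.11% and 33.9% of all genes, with zar1l, a relative of zar1, at -1.57 per hour, the opposite sign to zar1. With scaling to maternal genes these last counts were 7 higher and 1 lower in the egg, and none rising and 7 falling. Over all genes scaling gave 3787 higher and 2133 lower of 13350 in the egg. For the change from 0 to 3 hpf it gave 261 rising and 1928 falling of 13735. In Ribo-Zero RNA it gave 3651 falling and 7090 rising of 15935. Scaled counts over all genes for the slope difference are in the last paragraph.

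The partners of the 6 held genes moving both ways. Over all genes, 37.5% fell and 23.7% rose in alpha-amanitin embryos, and 51.4% fell and 23.3% rose in Ribo-Zero RNA. With scaling to maternal genes 4800 fell and 4491 rose of 13911 in alpha-amanitin embryos, and 3651 fell and 7090 rose of 15935 in Ribo-Zero RNA. Of 21 genes of the Mos, MAPK and MPF pathway 20 were tested, and in alpha-amanitin embryos 12 fell and 6 rose, led by the cyclin ccnb1 (-0.45 per hour), and with scaling 10 fell and 7 rose. Of the receptors and Smads that relay Gdf9 and Bmp15 signals, 17 identifiers were found, and 5 rose and 8 fell of 16 in Ribo-Zero RNA, with tgfbr1b at 0.94 and smad1 at 0.76 per hour, and with scaling 8 rose and 4 fell of 15. Among 21 btg4 partners and deadenylases, 17 fell and 2 rose in Ribo-Zero RNA, while 8 rose and 7 fell in alpha-amanitin embryos. From 4 to 7 hpf 10 of the 21 were higher and 1 lower in alpha-amanitin than in wild-type embryos, beside 23.8% and 21.8% of all genes, and with scaling 6 were higher and 2 lower. The largest differences were those of btg1, of the same family as btg4, at -4.49 (log2(TPM + 0.1), limma adjusted p = 0.00129), and cnot7, a catalytic deadenylase subunit, at 2.96 (0.0071). With scaling 6 of those 21 fell and 5 rose in Ribo-Zero RNA.

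Genes of cytoplasmic polyadenylation and masking gained poly(A) capture between 0 and 3 hpf in 11 of 20 cases, with none losing it, beside 33.9% and 2.11% of all genes (median 0.83 per hour, against 0.57), led by lsm14b, of the Lsm14 family of translational repressors, at 1.27. With scaling to maternal genes 1 of the 20 rose and 2 fell, where 261 of 13735 genes rose and 1928 fell. The egg envelope genes, which Figla activates in mouse, fell in Ribo-Zero RNA in 13 of 13 cases, beside 51.4% of all genes (median -0.24 per hour, near the -0.21 of maternal genes), with zp3c at -0.70, and with scaling 6 fell and 1 rose. Over all genes 3651 of 15935 fell and 7090 rose in Ribo-Zero RNA with scaling. In alpha-amanitin embryos 4 of these 13 egg envelope genes fell and 1 rose, beside 37.5% and 23.7% of all genes.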

How the data were processed

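The authors aligned reads with STAR 2.7.3a to danRer11 (Ensembl models), ran RSEM, and deposited its TPM per gene and library (bcl2fastq 2.18 is also listed in the submitters' processing notes). Sets of 25 embryos were collected, and each group has 1 library. TPM cannot give reads, so depth is unknown. All columns were mapped to a sample by their names, and no pair of libraries was identical. Linear models in limma 3.58.1 (R 4.3.3) used trended moderated variances, two-sided tests and Benjamini-Hochberg adjustment over all genes tested (threshold 0.05). They took log2 or natural log of TPM plus a pseudocount of 0.1, and genes averaging 1 TPM or more in the libraries of the fit. Half-life is ln 2 over minus the slope. Since hours stand in for repeats, p-values measure scatter between time points. Other steps used Python 3.11.15, numpy 2.4.6, pandas 2.3.3 and matplotlib 3.10.9. Fits were tested on simulated data. The 6 genes and the gene lists were chosen with earlier results of these data known. Named genes were the 6, up to 2 genes with the largest change past the threshold per list and comparison, and the 3 genes most like each of the 6, of which the first is given. List genes not found by name were left out. Alternatives were pseudocounts of 0.01 and 1, no filter or 5 TPM, scaling to maternal genes by median of ratios, different windows and models, and leaving out each hour. Sequences of transcripts and proteins were not used here.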

Additional observations from a re-analysis of the deposited data

Results flagged for a closer look

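For 4 results a test of the difference itself, an interaction term in limma, passed the threshold for a course over time that differed between 2 profiles. Between poly(A) and Ribo-Zero libraries at 0 to 3 hpf this was zar1, which gained 0.92 per hour on the log2 scale. Of all genes tested there, 33.9% rose and 2.11% fell. From 2 to 7 hpf, with alpha-amanitin set against wild type, the results were gdf9 (1.01 per hour), btg4 (0.72) and figla (0.66). Here 29.4% of all genes tested had a more positive slope in alpha-amanitin embryos and 23.1% a more negative one. With scaling to maternal genes the 4 results were 0.33 for zar1 and 0.47 for figla, neither past the threshold, and 0.79 for gdf9 and 0.49 for btg4, both past it. Leaving out 1 hour lost the call of zar1, btg4 and figla in 3 runs each, and never that of gdf9. For zar1 these include the runs without 2 or 3 hpf, in which no gene was called at all. No group had more than 1 library, so none could be searched for a library far from its group.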

How the results depend on the processing

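For the 6 genes, 205 of the values under other settings (leaving out hours aside) kept their side of the threshold with no called value changing sign, 20 lost the call, 8 gained one and 5 turned sign. The turned values were gdf9 in the egg with scaling (0.26) and the alpha-amanitin slopes of mos (0.000207), gdf9 (0.157) and bmp15 (0.0935) at 2 to 4.5 hpf and of figla (0.000357) at 5 to 7.5 hpf. Leaving out 1 hour kept 170 values, lost 23 calls and gained 5. It was not run for the egg comparison, where it leaves 1 library each. The labels give no replicate numbers. The treatments pair by hour, and with the hour as a factor all 4 level calls were lost (limma adjusted p = 0.0616 for gdf9, 0.0701 for mos, 0.0802 for btg4 and 0.0998 for bmp15). Over all genes that model called 631 higher and 2099 lower, against 3811 and 3495 in the main fit.

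Counts over all genes that moved by more than 1.5 times are as follows. With scaling, the egg comparison called 3787 genes higher and 2133 lower (1786 and 7797 without), the early capture change 261 and 1928 (4706 and 293), the Ribo-Zero slope 7090 up and 3651 down (3670 and 8090), the slope difference 2952 and 5847 (4635 and 3644) and the level difference 1654 higher (3811). With no filter, the early change called 2466 and 162, the Ribo-Zero slope 6044 up and the slope difference 5828 down, and at 5 TPM the Ribo-Zero slope called 2251 up, the slope difference 2177 down and the level difference 2060 lower (3495). At 0 to 4 hpf the early change called 7145 and 530. The alpha-amanitin slope (3308 up, 5242 down) called 1338 and 499 at 2 to 4.5 hpf, 41 and 2868 at 5 to 7.5 hpf and, added after seeing the data, 1124 up at 4 to 6 hpf. The Ribo-Zero slope at 0 to 3 hpf, also added, called 8 up and 6 down. At 3 to 6 hpf the slope difference called 2208 positive, and with the hour as a factor the level difference called 631 higher and 2099 lower. Leaving out 1 hour gave 0 to 5898 and 0 to 386 calls for the early change, 1935 to 4792 and 2404 to 3823 for the slope difference, and 88 to 5626 and 1211 to 4519 for the level difference. The causes were not tested.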
